A study of Mus musculus with 2 samples.

Results

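The genes of the mitochondrial ribosomal proteins were taken as every mouse gene whose symbol begins with Mrpl or Mrps followed by a digit, with pseudogene names left out. They numbered 77 of the 43346 mouse genes in the tables, 29 with Mrps symbols (small subunit) and 48 with Mrpl symbols (large subunit). RNA with poly(A) tails came from adipose tissue of an adult male C57BL/6J mouse, 10 weeks old, with no treatment or altered gene named. A single biosample (biological replicate 1) was sequenced as 2 technical libraries. The labels give 2015 as the year performed for the second, after the 2014 publication, and no year for the first. The design therefore holds 1 group, and the comparisons below are among the genes and between the libraries. With 1 library on each side no p-value can be given, every SD is technical (n = 2), and library and any difference in date cannot be told apart.

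Mitochondrial ribosomes translate the few messenger RNAs that mitochondrial DNA encodes, all for subunits of the respiratory chain and ATP synthase. Their proteins are made from nuclear genes, translated in the cytosol and imported, and they assemble on ribosomal RNA from mitochondrial DNA. Some descend from bacterial ribosomal proteins, and others were added in the mitochondrial lineage. In fat, mitochondria supply the ATP and the precursors used for lipid synthesis, and in brown fat they produce heat.

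The libraries held 19954869 and 19256807 expected counts. Adipocyte markers (6 of 6 genes at 1 TPM or more in both libraries) summed to 6567 and 14089 TPM, where TPM is a level corrected for transcript length and scaled to one fixed sum per library. Epididymis markers (5 of 5 genes) summed to 28792 and 34904 TPM, and male germ cell markers (4 of 4 genes) to 72.8 and 1144 TPM. Ucp1, the uncoupling protein that defines brown adipocytes, stood at 0.08 and 0.20 TPM, and skeletal muscle markers summed to 0.09 and 15.7 TPM. The part of these other cell types in the levels below was not tested. In such a tissue sample, fewer cells of a type and less RNA per cell cannot be told apart. RNA from mitochondrial DNA took 33.6% of all TPM in library 1 and 8.66% in library 2, and since TPM has a fixed sum the nuclear genes shared the rest.

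All 77 genes had counts in both libraries, from 7 to 1344 expected counts (median 267) in library 1 and from 204 to 3157 (median 474) in library 2. At 1 TPM or more stood 75 genes in library 1 and 77 in library 2. The 2 genes below that limit in library 1 were Mrpl4, at 0.37 TPM, and Mrpl12, at 0.98 TPM. Their values rested on 7 and 19 counts, above the floor of 3 counts. Median levels were 15.7 and 41.1 TPM in libraries 1 and 2, and 68 of the 77 genes had the higher TPM in library 2. The exceptions were Mrpl1, Mrpl32, Mrpl39, Mrpl42, Mrpl45, Mrpl47, Mrpl50, Mrps15 and Mrps30. A higher TPM in library 2 was not particular to this set. Over the 18275 genes tested below, median levels were 4.32 and 10.5 TPM. The median log2 TPM ratio, library 2 over library 1, was 0.71 for the tested genes with a value and 1.15 for the 77.

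**Figure D1:**
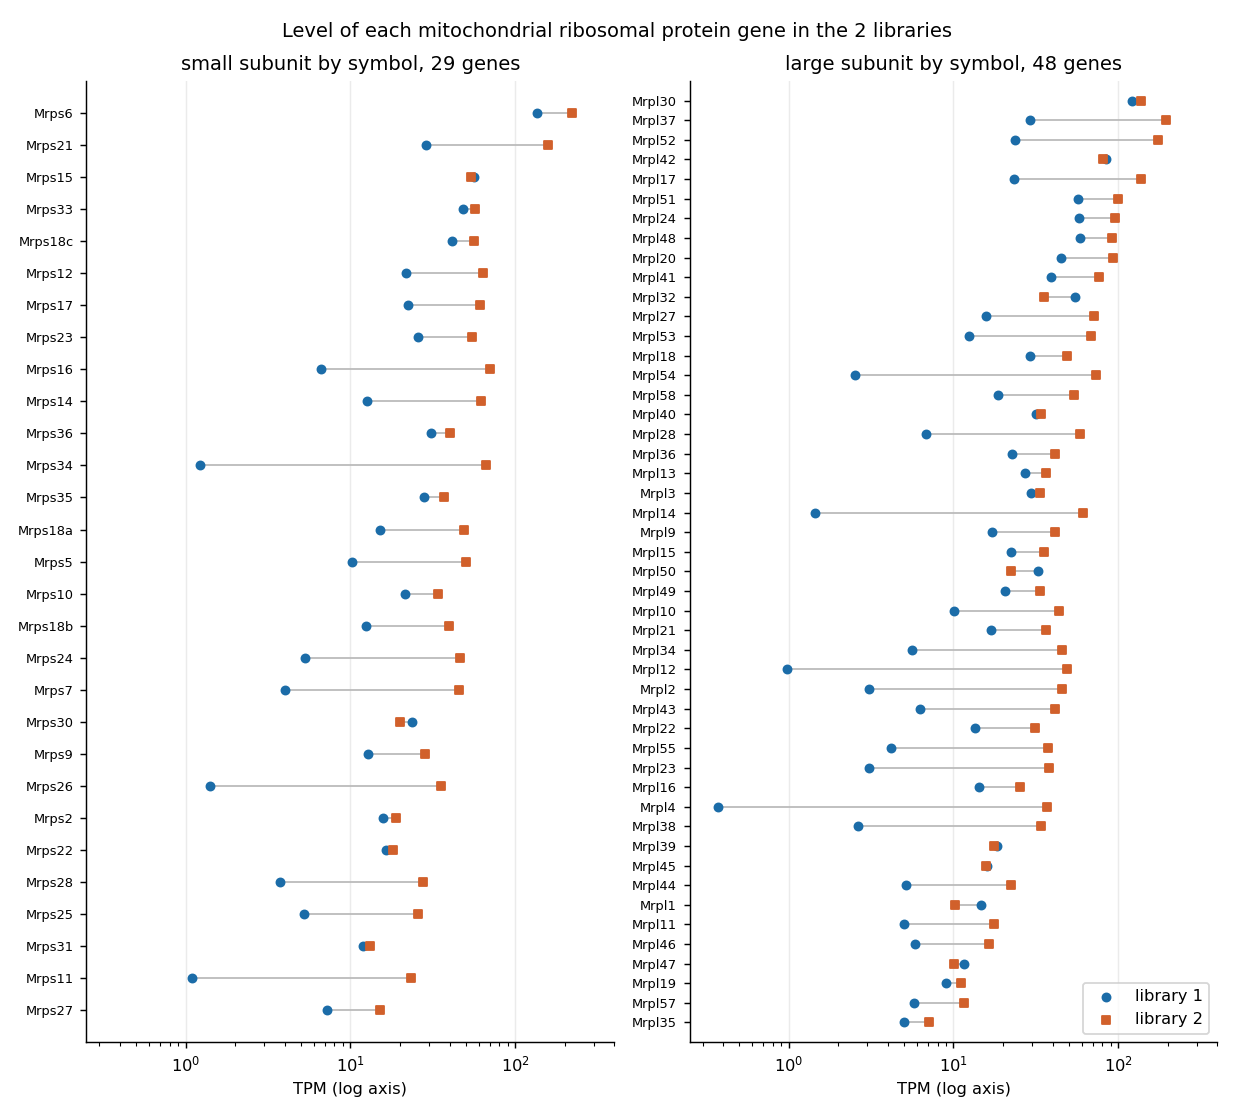
Level of each mitochondrial ribosomal protein gene in TPM (log axis) in library 1 (circles) and library 2 (squares), with small subunit genes on the left and large subunit genes on the right, ordered by the mean of both libraries. Mrps6 is highest at 136 and 223 TPM, and the longest lines belong to genes such as Mrpl4, which stands at 0.37 and 36.8 TPM.

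Mrps6, a small subunit protein with a bacterial homolog, had the highest level in both libraries, 136 and 223 TPM. Mrpl30, a large subunit protein with a bacterial homolog, stood at 122 and 137 TPM. Its values differed little, and it held rank 2 in library 1 and rank 6 in library 2. Mrpl42, a mitochondria-specific protein, was nearly level at 84.8 and 80.8 TPM.
The other leading genes owed their mean to library 2. Mrpl37, a mitochondria-specific large subunit protein, stood at 29.2 and 194 TPM, rank 17 in library 1 and rank 2 in library 2. Mrpl52 stood at 23.6 and 174 TPM, and Mrpl17 at 23.3 and 137 TPM. Mrps21 stood at 28.8 and 158 TPM. Of the 10 genes with the highest TPM in each library, 6 were shared: Mrps6, Mrpl30, Mrpl48, Mrpl24, Mrpl51 and Mrpl20. Beside these, Mrps15 (56.6 and 53.9 TPM), Mrps33 (48.3 and 57.3 TPM) and Mrps18c (41.6 and 55.9 TPM) completed the upper end of the small subunit.

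At the lower end, Mrpl35 had the smallest mean, with 5 and 7.15 TPM. Mrpl57, a mitochondria-specific protein, stood at 5.75 and 11.6 TPM, and Mrpl19 at 8.96 and 11.2 TPM. Mrpl35 and Mrpl19 had similar values in both libraries, while Mrpl57 had the higher TPM in library 2 (log2 TPM ratio 1.01). In the small subunit the lowest means were those of Mrps27 (7.18 and 15.1 TPM), a pentatricopeptide repeat protein, Mrps11 (1.09 and 23.2 TPM) and Mrps31 (11.9 and 13.1 TPM). Mrps11 had 13 counts in library 1 and held rank 75 there and rank 61 in library 2.

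The small and large subunits had like levels. Median TPM was 15.2 for the small and 15.8 for the large subunit in library 1, and 45.5 and 39.4 in library 2. The order of the medians thus turned between the libraries, and the ranges overlapped almost wholly, in library 1 from 1.09 to 136 and from 0.37 to 122 TPM. Symbols and structure differ for 3 genes. Mrps18a and Mrps30 encode proteins that sit in the large subunit despite their symbols, and Mrps36 encodes a component of the alpha-ketoglutarate dehydrogenase complex that carries a ribosomal name. Assigned by position, 26 small and 50 large subunit genes had library 1 medians of 12.7 and 15.8 TPM and library 2 medians of 46.0 and 39.4 TPM. Mrps18a stood at 15.2 and 48.9 TPM, Mrps30 at 23.6 and 20.1 TPM, and Mrps36 at 30.8 and 40.03 TPM. The paralogs of the Mrps18 family differed: Mrps18c was the highest in both libraries, while Mrps18b stood at 12.4 and 39.4 TPM, near Mrps18a.

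By origin the medians lay close together as well. The 45 genes with bacterial homologs had medians of 14.3 and 43.8 TPM in libraries 1 and 2, and the 31 mitochondria-specific genes of 16.3 and 37.0 TPM.

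The spread among the genes, whose products enter the ribosome mostly as single copies, was wider in library 1. The SD of log2 TPM over the 77 genes was 1.68 in library 1 and 1.03 in library 2. It was also wider in library 1 for cytosolic ribosomal protein genes (2.05 and 0.66) and nuclear OXPHOS subunit genes (2.76 and 1.46). The upper quartile lay 4.85-fold above the lower quartile in library 1 and 2.21-fold in library 2. Across the 77 genes the TPM of the libraries had a Spearman rho of 0.37, and of 0.70 across 12264 protein-coding genes at 1 TPM or more in both libraries. A low rho was not particular to this set, with 0.13 for the cytosolic ribosomal protein genes and 0.47 for the OXPHOS genes. These correlations are descriptions across genes, which share the libraries and are not independent replicates.

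The ratio between the libraries was taken from expected counts scaled by TMM, a scaling that assumes that most genes do not differ. It is given as the log2 of library 2 over library 1. Its 95% exact Clopper-Pearson interval covers counting error only. A gene was called where it passed 2-fold. All 77 genes passed the filter of 10 summed counts. Of them, 31 were called higher in library 2 (40.3%) and 3 lower (3.90%), while 43 lay within 2-fold. Of all 18275 tested genes, 31.3% were called higher and 19.9% lower, so the higher share of the ribosomal protein genes was not far above the background and the lower share was below it. The median log2 ratio was 0.34 for the 77 genes and 0.02 for all tested genes. In 27 of the 31 genes the whole interval lay past 2-fold, with Mrpl11, Mrpl17, Mrpl58 and Mrps14 as the exceptions. Over all tested genes this held for 4416 of the 5723 called higher. When the libraries were scaled by total counts instead, every log2 ratio rose by 0.44, and 37 genes were then higher and 0 lower.

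The largest ratio belonged to Mrpl4, whose bacterial relative lines the exit tunnel of the ribosome. It had 7 counts in library 1 and 542 in library 2, a log2 ratio of 5.79 (interval 4.84 to 7.21). Mrpl14, a protein of the subunit interface, had 8 and 359 counts and a log2 ratio of 5.02 (4.11 to 6.32). Mrpl12, the stalk protein that also binds the mitochondrial RNA polymerase, had 19 and 728 counts and a log2 ratio of 4.84 (4.22 to 5.61). Each of these genes had few counts in library 1, and in library 2 they stood at 36.8, 61.2 and 49.1 TPM (ranks 45, 20 and 29).
Mrps34, a mitochondria-specific small subunit protein, had 20.5 and 681 expected counts and a log2 ratio of 4.67 (4.06 to 5.42). Mrpl54, likewise mitochondria-specific, had 18 and 409 counts and a log2 ratio of 4.08 (3.44 to 4.89).

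Below these extremes came 16 genes of both subunits with log2 ratios from 2 to 4. Mrps11 had 13 and 251 counts and a log2 ratio of 3.83. Mrpl38, a mitochondria-specific protein, had 33 and 503 counts and a log2 ratio of 3.52. Mrpl2, whose bacterial relative lies at the peptidyl transferase centre, had 42 and 518 counts and a log2 ratio of 3.22. Mrpl28 had 54 and 645 counts (3.18), Mrps26 57 and 538 (2.84) and Mrps7 104 and 836 (2.61). Mrps21 had 70 and 602 counts (2.71). In 15 of the 16 genes the library 1 count lay below the library 1 median of 267, the exception being Mrpl37 with 586 and 3157 counts. The library 2 counts of the 16 ran from 222 to 3157, on both sides of the library 2 median of 474.
Other genes scarcely differed. Mrpl30 had 737 and 966 counts and a log2 ratio of 0.0029 (-0.14 to 0.14), and Mrpl48 516 and 679 counts and a log2 ratio of 0.0084 (-0.16 to 0.18). In all, the interval held 0 in 10 genes, lay above 0 in 47 and lay below 0 in 20. Intervals were not counted in this way over all tested genes. By sign of the ratio alone, 53 of the 77 genes were above 0 and 24 below, beside 9230 and 9045 of the 18275 tested genes.

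The genes lower in library 2 were all of the large subunit. Mrpl32, whose maturation by an inner membrane protease is needed for ribosome assembly, had 540 and 277 counts and a log2 ratio of -1.35 (-1.57 to -1.14). Mrpl50, a mitochondria-specific protein, had 1076 and 581 counts and a log2 ratio of -1.28 (-1.42 to -1.13). Mrpl1, the protein of the ribosomal stalk near the exit of transfer RNA, had 638 and 373 counts and a log2 ratio of -1.16 (-1.35 to -0.98). Next to them, within 2-fold, stood Mrps15 at -0.96 and Mrps30 at -0.96.

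The subunits differed little in the ratio. The median log2 ratio was 0.30 for the small and 0.59 for the large subunit, a difference of -0.29 (small minus large), and the ranges, -0.96 to 4.67 and -1.35 to 5.79, overlapped. Of the small subunit genes 11 were called higher and 0 lower, and of the large subunit genes 20 and 3. By position the difference was -0.28. After the trend with GC content described next was taken out, it was -0.11.

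The ratio followed the GC content of the transcripts. The 31 genes called higher had a median GC content of 54.7%, the 43 within 2-fold 48.5% and the 3 called lower 41.1%. Across the 77 genes, GC content (39.8% to 60.8%) and log2 ratio gave 0.79 as Pearson's r and 0.77 as Spearman's rho, and r was 0.77 without the 2 genes farthest from the median GC content. Across all tested genes r was also 0.79. The large subunit genes followed it more closely (r = 0.84) than the small subunit genes (r = 0.69), a difference that was not tested.

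**Figure D2:**
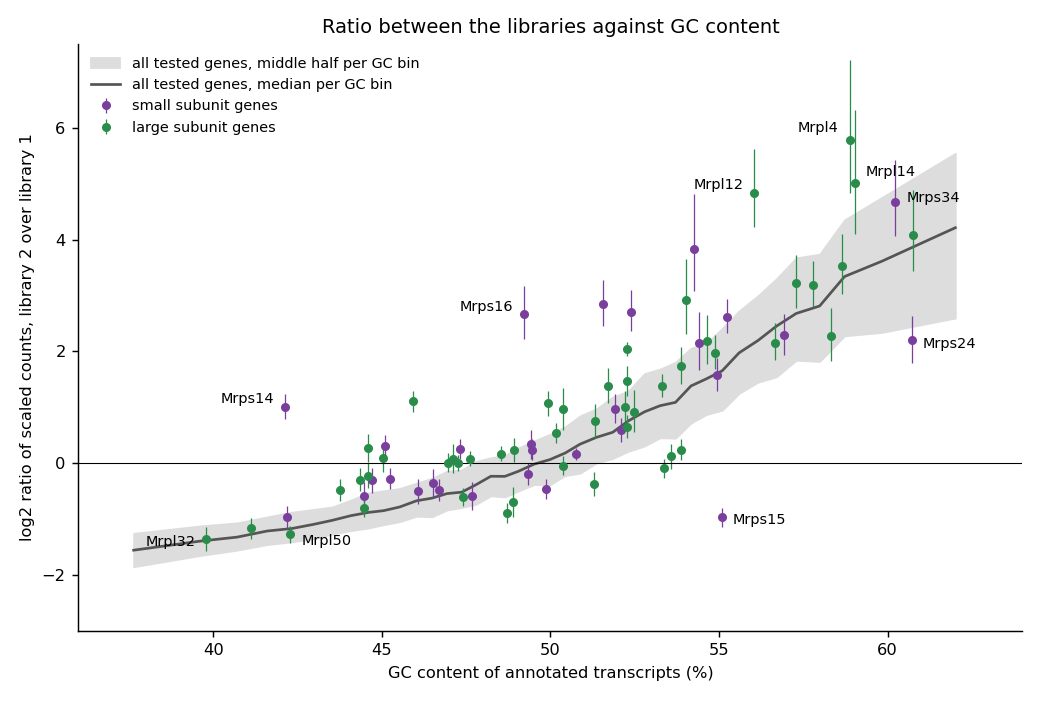
Log2 ratio of scaled counts, library 2 over library 1, against GC content (%) for the 77 genes, with 95% counting intervals, over the median (line) and interquartile range (band) of all tested genes in 40 bins of GC content. The genes climb with the line from Mrpl32 at 39.8% to Mrpl4 at 58.9%, while Mrps15 lies far below it and Mrps14 and Mrps16 above it.

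Levels showed the same in each library taken alone. In library 1, median TPM was 23.4 for the 26 genes of lowest GC content, 16.9 for the next 25 and 5.47 for the 26 of highest GC content. In library 2 the medians were 35.3, 36.7 and 46.2 TPM in the same order. Log2 TPM and GC content had an r of -0.52 in library 1 and of 0.31 in library 2, so the direction turned. The SD of log2 TPM among the 26 genes of highest GC content was 1.81 in library 1 and 0.63 in library 2, whereas among those of lowest GC content it was 1.20 and 1.16. Of the 26 genes of highest GC content, 21 were called higher in library 2 (80.8%) and 0 lower, beside 75.3% and 0.77% of the 6000 tested genes in the same range of GC content. Of the 26 of lowest GC content, 2 were called higher, Mrps14 and Mrpl17 (7.69%), and 3 lower (11.5%), beside 1.30% and 43.1% of the 6170 tested genes in that range.

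**Figure D3:**
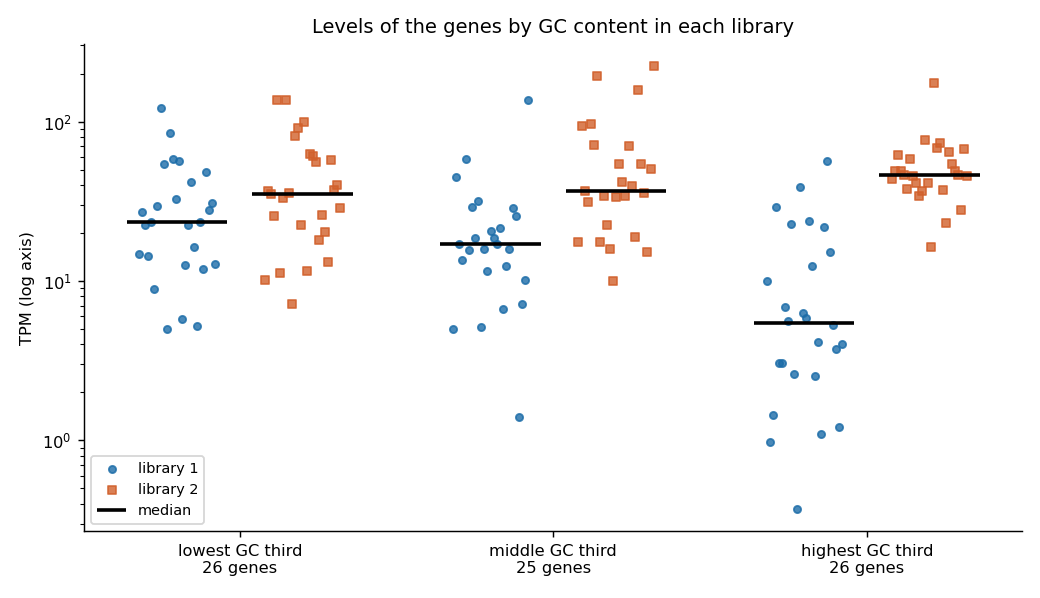
TPM (log axis) of the 77 genes in library 1 (circles) and library 2 (squares), in 3 groups of rising GC content, with the median of each as a bar. In library 1 the medians fall from 23.4 to 5.47 TPM as GC content rises, and in library 2 they lie between 35.3 and 46.2 TPM.

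The coding sequences at both ends of the ratio show what this contrast looks like in letters. For the 2 lowest and the 2 highest ratios among genes whose leading transcript begins with a start codon, the first 90 coding bases and the central 90 coding bases are given, from GENCODE transcripts, with G and C in capitals:
Mrpl50 start: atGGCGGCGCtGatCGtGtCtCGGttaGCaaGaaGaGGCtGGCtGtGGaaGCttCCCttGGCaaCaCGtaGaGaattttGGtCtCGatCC
Mrpl50 centre: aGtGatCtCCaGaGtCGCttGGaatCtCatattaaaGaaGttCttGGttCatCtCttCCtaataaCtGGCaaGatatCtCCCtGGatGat
Mrpl1 start: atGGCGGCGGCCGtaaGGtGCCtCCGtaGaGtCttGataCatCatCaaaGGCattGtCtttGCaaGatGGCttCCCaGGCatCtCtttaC
Mrpl1 centre: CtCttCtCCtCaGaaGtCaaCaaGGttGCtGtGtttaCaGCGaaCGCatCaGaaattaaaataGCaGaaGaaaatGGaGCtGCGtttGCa
Mrpl14 start: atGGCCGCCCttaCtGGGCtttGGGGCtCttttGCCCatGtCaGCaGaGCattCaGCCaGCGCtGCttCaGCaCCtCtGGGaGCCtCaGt
Mrpl14 centre: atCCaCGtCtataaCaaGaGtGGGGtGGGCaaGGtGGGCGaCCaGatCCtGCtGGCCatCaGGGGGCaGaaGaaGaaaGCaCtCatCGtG
Mrpl4 start: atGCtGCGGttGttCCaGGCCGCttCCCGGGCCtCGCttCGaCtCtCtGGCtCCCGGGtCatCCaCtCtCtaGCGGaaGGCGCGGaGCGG
Mrpl4 centre: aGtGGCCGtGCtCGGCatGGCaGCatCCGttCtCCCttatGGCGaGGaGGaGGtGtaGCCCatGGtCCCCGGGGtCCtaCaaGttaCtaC
The first stretch encodes the start of the protein, where mitochondrial targeting sequences usually lie, and its GC content was 54.4% in Mrpl50, 51.1% in Mrpl1, 60% in Mrpl14 and 67.8% in Mrpl4, against a median of 63.3% over the 77 genes. At the centre it was 40% and 42.2% in Mrpl50 and Mrpl1 and 56.7% and 61.1% in Mrpl14 and Mrpl4, against a median of 53.3%. Both stretches were richer in G and C in the pair with the high ratios. Mrpl32, which had the lowest ratio of all (-1.35), was left out because its coding part does not begin with a start codon. Its first and central stretches had 63.3% each, more than those of Mrpl14. Over all 77 genes the GC content of the first 90 coding bases had an r of 0.27 with the log2 ratio and that of the central 90 coding bases 0.46. GC content of the annotated coding part of 1 transcript per gene had an r of 0.64, of its bases at codon position 3 an r of 0.57, and of all annotated transcripts 0.79. Single stretches of 90 bases thus followed the ratio less closely than whole transcripts did. In some genes the coding part used was short or incomplete, with 117 bases in Mrpl32, 123 in Mrpl3 and 132 in Mrps14. That of Mrpl32 had a GC content of 61.5%, against 39.8% for all its annotated transcripts. The effect on the correlations of the coding measures was not tested.

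Some genes departed from the trend. With the median of all genes of like GC content subtracted, 15 genes were higher (19.5%) and 4 lower (5.20%), against 12.0% and 9.98% of 18147 tested genes. The split of calls was then 15 to 4 instead of 31 to 3, and 13 of the 31 genes stayed higher. The median of the 77 genes was 0.37 by this measure, where all genes stand at 0. Mrps15, a small subunit protein with a bacterial homolog, had a GC content of 55.1% and yet 727 and 487 counts, a trend-free log2 ratio of -2.62. It was the gene farthest below the trend, and its TPM was near level at 56.6 and 53.9. Mrps24 had 56 and 338 counts at a GC content of 60.7%, which is -2.02 against the trend. Mrpl18, at -1.12, and Mrpl34, at -1.07, were the others lower.
Above the trend, Mrps16 had 43 and 360 counts at a GC content of 49.2%, a trend-free value of 2.81. Mrps14 had 231 and 608 counts at 42.1%, a trend-free value of 2.18. Mrpl12 (2.64), Mrps11 (2.45), Mrpl4 (2.45) and Mrps26 (2.38) also stood above genes of like GC content. Mrpl32, Mrpl1 and Mrpl50, the genes called lower, lay on the trend at 0.047, 0.16 and -0.11.

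Transcripts of these genes also differed between the libraries. The tables list 275 transcripts for the 77 genes, and 58 genes have more than 1. In 37 of these 58 the same transcript took the largest share of the gene's TPM in both libraries, and in 21 it did not. Where it differed, the transcript leading in library 1 had the lower GC content in 17 of 21 genes, with a median of 51.8% against 53.7% for those leading in library 2. In 13 of the 21 a transcript of a type other than protein coding led in library 1 and a protein-coding one in library 2. Over all 77 genes, the leading transcript was protein coding, by the types of GENCODE M21, in 54 genes in library 1 and in 66 in library 2. Protein-coding transcripts took 73.2% of the summed TPM of the genes in library 1 and 82.9% in library 2, and processed transcripts without a coding part 14.4% and 5.92%. The 21 were Mrpl2, Mrpl14, Mrpl20, Mrpl21, Mrpl22, Mrpl23, Mrpl24, Mrpl28, Mrpl38, Mrpl45, Mrpl48, Mrpl55, Mrpl58, Mrps6, Mrps11, Mrps12, Mrps18a, Mrps21, Mrps23, Mrps25 and Mrps33, and 11 of them were called higher. These shares are estimates, and 10 of the 21 genes had under 100 counts in library 1. Leading transcripts were read for the 77 genes only, so whether other genes differed as often was not tested.

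**Figure D4:**
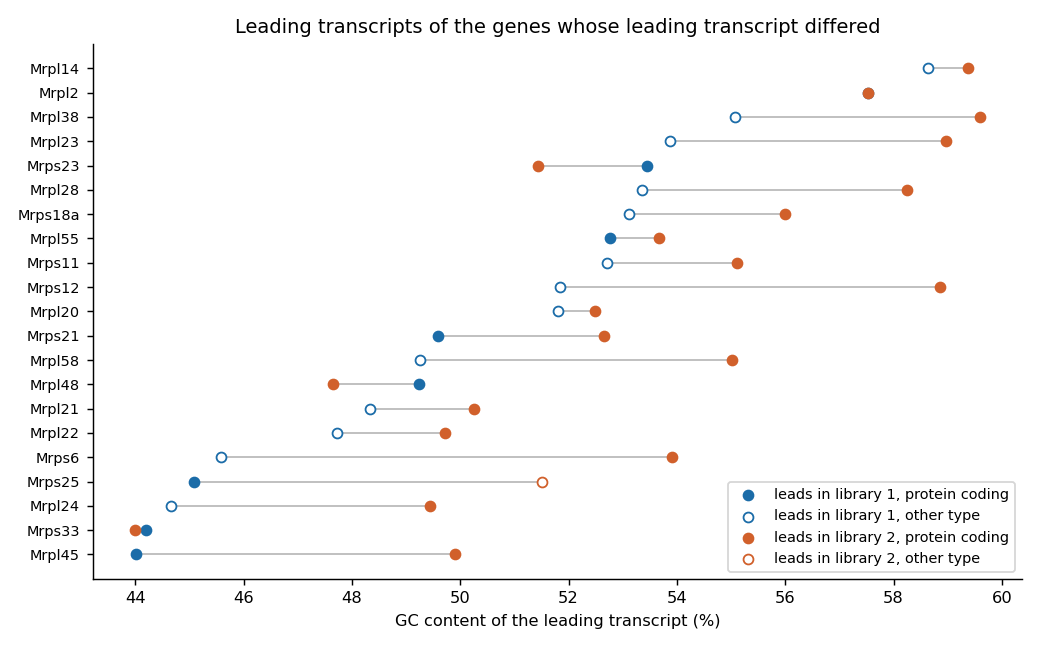
GC content (%) of the leading transcript in library 1 and in library 2 for the 21 genes in which it differed, filled where the transcript is protein coding and open for other types. The library 2 transcript lies to the right in 17 of the genes, and in Mrpl2 both markers coincide at 57.5%.

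Mrps6 is the best covered example. In library 1 a processed transcript of 702 bases took 57.6% of its TPM (691 counts) and the protein-coding transcript of 846 bases 42.5% (653 counts). In library 2 the protein-coding transcript took 99.8% (1967 counts) and the processed one 0.22% (3.38 counts). The processed transcript has a GC content of 45.6% and the coding one 53.9%. The estimated count of the protein-coding transcript thus differed more between the libraries than the count of the gene, which had a log2 ratio of 0.16. Counts of Mrps6 were fractional, and it overlaps Slc5a3 on the same strand. Whether the RNA itself differed in this way was not tested.
Mrps12, a protein of the decoding centre, was given almost wholly to a processed transcript of 380 bases in library 1 (99.5%, 71.6 counts) and to the protein-coding transcript in library 2 (94.8%, 437 counts). Mrpl58, a member that can release peptides from stalled ribosomes, was led by a retained-intron transcript in library 1 (59.9%, 66.2 counts), which held 0 counts in library 2. Mrpl21, Mrpl24, Mrpl28, Mrpl38, Mrps11 and Mrps18a were likewise led by retained-intron transcripts in library 1 and by protein-coding ones in library 2.

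Where long and short transcripts exchanged places, TPM and counts moved apart. The average transcript length that the tables give differed by 1.5-fold or more between the libraries in 6 genes: Mrps25, Mrps26, Mrps5, Mrpl45, Mrps12 and Mrpl28. Mrps25 had 366 and 337 counts, a log2 ratio of -0.51, but 5.23 and 25.8 TPM, a log2 TPM ratio of 2.30. Its length was 4280 bases in library 1, led by a protein-coding transcript of 6073 bases, and 1160 bases in library 2, led by a retained-intron transcript of 565 bases. Mrpl45, the protein that ties the ribosome to the inner membrane, went the other way, with a length of 1316 and 2431 bases and 15.95 and 15.8 TPM for 308 and 474 counts. For these genes the level in TPM depends on the transcript assignment.

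The genes were spread over 17 chromosomes, with 11 genes on chromosome 11, in the GENCODE annotation of the mm10 assembly. Mrpl4 lies on chromosome 9 (21002738 to 21008839, plus strand), Mrpl12 on chromosome 11 (120484613 to 120489065, plus strand) and Mrpl50 on chromosome 4 (49512596 to 49521093, minus strand). A protein-coding gene started head to head within 1000 bases in 18 of 77 genes (23.4%), against 6.77% of 22028 protein-coding genes. The latter were all annotated genes, expressed here or not, and the share among expressed genes was not counted. The partners included Fau, which encodes a cytosolic ribosomal protein and starts 59 bases from Mrpl49, and Psma2, a proteasome subunit gene 75 bases from Mrpl32. Sars2, the mitochondrial seryl-tRNA synthetase gene, starts 172 bases from Mrps12. Of the 18 partners, 14 had the higher TPM in library 2. Most tested genes were also higher by this measure, with a median log2 TPM ratio of 0.71 over all of them. Fau stood at 44.8 and 1315 TPM beside Mrpl49 at 20.7 and 33.4 TPM, whereas Ptcd2 and Mrps27 had like levels, 12.0 and 15.5 TPM beside 7.18 and 15.1 TPM.

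Promoters were read from RefSeq (GRCm38.p6) over 250 bases before and 50 bases after the start, and 68 of the 77 genes matched. They were searched on both strands for a motif of NRF-1 (GCGCATGC), a regulator of nuclear genes for mitochondria, for the ETS family motif CCGGAAGT bound by GABP, and for the YY1 motif AAGATGGC, none of which contains another. The NRF-1 letters were in 7 of 68 (10.3%), against 4.14% of 16317 promoters of protein-coding genes. The ETS letters were in 11 (16.2%, against 5.99%) and the YY1 letters in 12 (17.6%, against 3.67%). Any of them was in 28 promoters (41.2%), against 12.9% of all and 18.1% of 9697 promoters of protein-coding genes at 1 TPM or more in both libraries. Among the latter the single shares were 5.77% (NRF-1), 8.72% (ETS) and 5.002% (YY1). The share with any motif was 33.9% for 56 cytosolic ribosomal protein genes and 34.8% for 66 nuclear OXPHOS genes with a promoter entry. NRF-1 letters were in 15.2% of the OXPHOS promoters, and ETS letters in 19.6% of the cytosolic ribosomal ones. A match is a description of letters, not of a bound factor. Genes with any match had medians of 17.8 and 42.7 TPM, and genes with none 14.6 and 42.8 TPM.

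In 2 genes the promoter held more than 1 kind of motif, and both are shown from 5′ to 3′ on the strand of the gene with the motifs in capitals. Mrpl32 (chr13:14612988-14613287, minus strand) has YY1 letters and several NRF-1 matches, and Mrps27 (chr13:99344536-99344835, plus strand) has the ETS and YY1 letters:
Mrpl32: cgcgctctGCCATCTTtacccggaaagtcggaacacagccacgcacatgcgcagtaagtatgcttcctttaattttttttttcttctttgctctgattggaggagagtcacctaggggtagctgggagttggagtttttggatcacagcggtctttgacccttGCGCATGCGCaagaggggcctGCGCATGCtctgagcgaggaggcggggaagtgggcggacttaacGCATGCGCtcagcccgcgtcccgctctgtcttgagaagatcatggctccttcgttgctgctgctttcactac
Mrps27: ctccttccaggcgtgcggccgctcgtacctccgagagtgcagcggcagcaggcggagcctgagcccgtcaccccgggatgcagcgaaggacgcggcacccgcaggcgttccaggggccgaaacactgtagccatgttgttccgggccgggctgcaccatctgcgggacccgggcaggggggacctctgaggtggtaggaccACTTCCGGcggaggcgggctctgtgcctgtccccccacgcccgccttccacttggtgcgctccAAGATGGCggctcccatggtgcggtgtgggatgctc
Mrpl32 stood at 54.4 and 35.4 TPM (ranks 8 and 49) and Mrps27 at 7.18 and 15.1 TPM (ranks 53 and 71).

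Reads shared with other genes limit some values. Counts were not whole in 8 genes (tolerance 0.005): Mrpl23, Mrpl27, Mrpl42, Mrpl53, Mrps18b, Mrps34, Mrps36 and Mrps6. Mrpl23 had 21.9 and 222 expected counts, with a log2 ratio of 2.92 that is uncertain for this reason. Moreover, 25 genes, some of them among these, overlap a protein-coding gene, 22 on the opposite strand and 4 on the same strand. The strand setting of the counting is not given in the sources used here. For partners on the opposite strand, whether strand separated the reads is therefore not known. For Mrpl53, Mrps24, Mrps34 and Mrps6, which overlap a partner on the same strand, strand could not separate them. Outside the 8 genes with fractional counts, the counts of the 25 overlapping genes were whole in both libraries, such as 104 and 836 for Mrps7. Mrpl46 and Mrps11 overlap each other by 412 bases on opposite strands, and their log2 ratios were 0.92 and 3.83.

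The other genes of mitochondrial translation were read from 5 lists, whose counts of calls stand beside the 31.3% higher and 19.9% lower over all tested genes. Ribosomal proteins with other symbols numbered 5, of which 2 were called higher in library 2 and 1 lower, with a median log2 ratio of 0.35. Aurkaip1 had 82 and 817 counts (5.32 and 80.6 TPM, log2 ratio 2.92) and Gadd45gip1 18 and 351 counts (log2 ratio 3.86). Chchd1, at 38.8 and 64.2 TPM, and Dap3, a GTP-binding protein of the small subunit at 34.5 and 56.0 TPM, lay within 2-fold. Ptcd3, a pentatricopeptide repeat protein of the small subunit, had a log2 ratio of -1.28.
Among 14 translation factors 3 were called higher and 2 lower (median -0.23). Tufm, the elongation factor that delivers transfer RNA, stood at 4.31 and 59.7 TPM with a log2 ratio of 3.05. Guf1, an elongation factor of the same GTPase family, had a log2 ratio of -1.28, and Slirp, which stabilises mitochondrial messenger RNA with Lrpprc, was the highest by level at 60.0 and 81.3 TPM.

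Among 21 assembly and ribosomal RNA modification factors 10 were called higher and 3 lower (median 0.85). The extremes were Dhx30, an RNA helicase (30.6 and 998 expected counts, log2 ratio 4.599), and Fastkd2 (log2 ratio -1.24). Mterf3, at 69.7 and 35.4 TPM, had the highest mean level of this list, followed by Malsu1 at 22.9 and 24.5 TPM. In library 2 alone Mpv17l2 was higher, at 40.03 TPM. Among 17 mitochondrial aminoacyl-tRNA synthetases 8 were called higher and 0 lower (median 0.81), from Aars2 at 4.86 to Rars2 at -0.99. Hars2 (20.4 and 30.9 TPM) and Iars2 (16.6 and 29.3 TPM) had the highest mean levels there. Among 9 genes of mitochondrial DNA maintenance and transcription 2 were called higher and 1 lower (median -0.25). Polrmt, the mitochondrial RNA polymerase, had 12 and 449 counts (log2 ratio 4.78), and Tfam, which packages mitochondrial DNA, stood at 51.9 and 27.8 TPM. Ssbp1, the single-strand DNA binding protein, had the highest level at 62.0 and 51.4 TPM, and Tfb2m, a partner of the polymerase, the lowest ratio at -1.31. Ratio and GC content had an r of 0.87, 0.84, 0.85 and 0.93 in these 4 larger lists, in the order given.

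Set beside related genes, the mitochondrial ribosomal protein genes had lower levels and a smaller median ratio. Their median of 15.7 and 41.1 TPM compared with 177 and 949 TPM for 76 cytosolic ribosomal protein genes and with 44.9 and 183 TPM for 83 nuclear OXPHOS genes. The median log2 ratio was 1.91 for the cytosolic ribosomal proteins and 1.26 for the OXPHOS genes, against 0.34 here. Called higher were 53 of 76 and 44 of 82 tested, against 31 of 77. With the GC trend taken out the medians were 1.34, 0.96 and 0.37, in the same order. The 13 messenger RNAs that mitochondrial ribosomes translate went the other way, with 13 of 13 called lower, a median log2 ratio of -2.71 (-1.16 and 11 lower with the GC trend taken out) and a median level of 15971 and 3551 TPM. None of these differences between sets was tested.

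**Figure D5:**
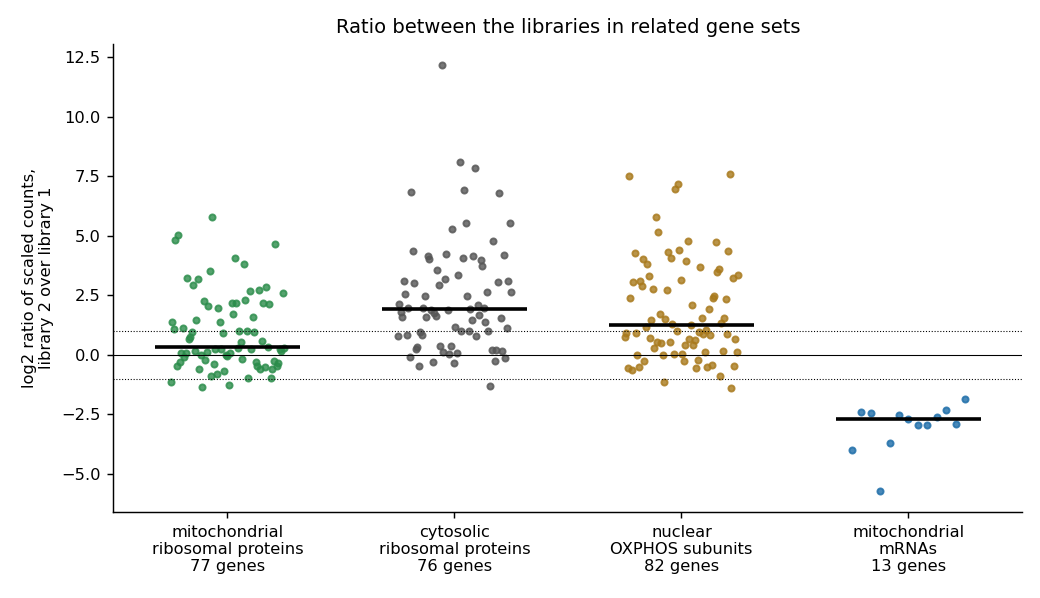
Log2 ratio of scaled counts, library 2 over library 1, of each gene in 4 sets, with the median as a bar and dotted lines at 2-fold. The mitochondrial ribosomal proteins have a median of 0.34, below the 1.91 of the cytosolic ribosomal proteins, whose topmost point (Rpl36) has 0 counts in library 1 and depends on the 0.5 added to each count.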

How the data were processed

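For genes and transcripts the authors deposited expected counts, which need not be whole, with TPM and FPKM, per the file headers. For each transcript they also deposited its percent of the TPM of its gene. Assembly mm10 and annotation M4 are named in a text deposited with the files. Aligner and quantifier: not given in the sources used here. Symbols, coordinates, transcript types and GC content came from GENCODE M21 on the same assembly, a later release (42462 of 43346 identifiers matched). Transcript types may therefore differ from those of M4. Mrpl33 matched no entry and is not analysed here.

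Expected counts were rounded to whole numbers, filtered at 10 summed counts and scaled by TMM (edgeR 4.0.16, R 4.3.3). For log2 ratios, 0.5 was added to both counts. The share of library 2 in the summed counts gave 95% exact Clopper-Pearson intervals. Without molecular identifiers, reads are not independent molecules, and these intervals and the floor of 3 counts cover counting error only. The trend with GC content was taken out as the median of all genes in 40 bins of equal size. Alternatives included DESeq2 1.42.0 size factors, total counts, other filters, posterior means and FPKM. The scaling and intervals were tested on simulated data. Python 3.11.15, numpy 2.4.6, pandas 2.3.3, scipy 1.17.1 and matplotlib 3.10.9 were used.

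The genes and lists were chosen with earlier results of these data known. Genes named are the 5 highest and 3 lowest of each subunit by mean TPM, the 5 highest and lowest by ratio and by GC content, those with fractional counts or with differing leading transcripts, and 8 named for their role. Of each other list, the 2 highest by TPM and the extremes by ratio are named. Genes farthest from the GC trend, genes with a divergent neighbour, and the other genes named as examples or exceptions were picked after their values were seen.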

Additional observations from a re-analysis of the deposited data

Results flagged for a closer look

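A pseudogene entry outside the gene set held counts in both libraries. Mrpl23-ps1, a processed copy of Mrpl23 left out by the naming rule, had 13.1 expected counts in library 1 and 148.5 in library 2, above the floor of 3 counts. Its counts were fractional, as were the 21.9 and 222 of Mrpl23 itself. The other 4 pseudogene entries had at most 1.37 counts.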

How the results depend on the processing

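The 31 genes called higher were 29 to 37 under every other scaling, filter, added count or posterior mean tried, and 15 with the GC trend removed. The 3 called lower were 0 under total counts, 4 with the GC trend removed (0 of them shared) and 3 otherwise. The median log2 ratio of 0.34 was 0.77 under total counts and 1.15 as a ratio of TPM, and 0.32 to 0.37 under the other alternatives. With the GC trend removed, 8 called genes changed sign: Mrpl34 (-1.07), Mrpl1 (0.16), Mrpl32 (0.047), Mrpl52 (-0.29), Mrpl54 (-0.13), Mrps12 (-0.16), Mrps18a (-0.068) and Mrps24 (-2.02). The cause was not tested. Of 47 named genes, 47 stayed within their intervals under DESeq2 size factors and 47 with posterior mean counts, but 12 under total counts and 3 with the GC trend removed. The median mean level of 28.8 TPM was 15.7 without library 2 and 41.1 without library 1, 30.2 became 15.2 and 45.5 for the small subunit, and 28.2 became 15.8 and 39.4 for the large one. Genes at 1 TPM or more in both libraries numbered 75, and 64 at 5 TPM. The correlation with GC content was 0.80 with the GC of the leading transcript and 0.73 for the ratio of TPM. Ratios of genes with few counts in library 1, such as Mrpl4, are limited by that depth. No paired analysis was possible because the labels hold 1 group.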
